A study of Mus musculus with 12 samples.

Results

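Embryonic mouse spinal cord cells grown on wells that carried a protein or a membrane coat were set against cells grown on poly-D-lysine alone. All 12 libraries of the series entered the comparison, 9 from coated wells and 3 from the poly-D-lysine wells. The coated wells formed 3 groups of 3 libraries each: laminin (Laminin), myelin membranes of wild-type origin (Myelin), and both together (Laminin + Myelin). The wells without either, called PDL here, also had 3 libraries. Every well had first received poly-D-lysine at 20 μg/ml, the coated wells included, so the comparison measured what the added coat changed and not what poly-D-lysine did. Laminin was added at 1 μg/ml and myelin at 10 μg/ml. The cells came from wild-type C57BL/6 embryos at embryonic day 12, were plated in Neurobasal medium with B27, and were lysed for RNA after 48 hours. The labels name neither the sex of the embryos nor the number of litters. Cell-free wells with a myelin coat had also been prepared, per the labels, and were not analysed here. The 3 coats were weighted equally, the replicate numbers 1 to 3 of the labels entered as a block, and each gene was asked whether all 3 coats moved it in the same direction.

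Poly-D-lysine is a synthetic polymer that holds cells to plastic by charge and has no dedicated receptor. Laminin is a basement membrane protein that cells bind through integrins and dystroglycan, and neurites extend readily on it. Myelin membranes carry proteins that restrain neurite growth in the adult cord. Cells that grip a matrix can raise contractile and matrix genes through the transcription factors YAP and SRF. SRF binds a DNA element named the CArG box, which many smooth muscle actin genes hold in their promoters. In RNA-seq, a part of the reads falls outside annotated genes. Such reads come in general from introns of unspliced RNA, from transcripts missing in the annotation or from genomic DNA, and their source was not tested here.

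A pair of promoters stands for both directions of change described below. Acta2 (smooth muscle actin) was higher and Meg3 (an imprinted, nuclear long noncoding RNA) was lower on each coat than on PDL. Both are taken from RefSeq on GRCm38.p6 and read 5′ to 3′ on the strand of the gene. They run from 250 bases before to 50 bases after the annotated start. The first lies at chr19:34255324-34255623 on the minus strand, and its capitals mark 2 matches to the CArG box with 1 departure allowed in the core. The second lies at chr12:109540746-109541045 on the plus strand, and its capitals mark the cyclic AMP response element TGACGTCA.
Acta2: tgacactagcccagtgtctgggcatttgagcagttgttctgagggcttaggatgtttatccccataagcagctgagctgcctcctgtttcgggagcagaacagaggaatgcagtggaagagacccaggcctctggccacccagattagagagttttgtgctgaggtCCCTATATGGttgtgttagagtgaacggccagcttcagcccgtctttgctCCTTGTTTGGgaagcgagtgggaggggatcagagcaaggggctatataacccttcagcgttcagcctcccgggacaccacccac
Meg3: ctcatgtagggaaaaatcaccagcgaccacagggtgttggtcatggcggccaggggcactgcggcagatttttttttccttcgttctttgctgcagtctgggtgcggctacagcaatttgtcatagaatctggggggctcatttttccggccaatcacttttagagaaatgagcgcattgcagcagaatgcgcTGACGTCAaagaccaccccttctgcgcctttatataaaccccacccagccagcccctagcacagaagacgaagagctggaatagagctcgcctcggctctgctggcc
The CArG box reads the same on both strands, and so does TGACGTCA. The exact CArG box was present in 535 of 32851 promoters of this length (1.63%), and the box with 1 departure in 3280 (9.99%). TGACGTCA was present in 588 (1.79%). Among 15 smooth muscle genes listed here, 12 had a promoter in the table, and 3 of these (Acta2, Ldb3 and Myl9) held the box with 1 departure. Here a gene counted if any of its promoters matched, whereas the shares above count promoters, so they are not comparable. A match describes the letters only.

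Each library held 36061511 to 45024091 reads in genes and detected 17870 to 19112 genes. All 26 Hox genes listed could be tested, with summed levels of 2859 to 3350 CPM (each library's counts brought to 1 shared depth with TMM factors) on coats and 2930 to 3323 CPM on PDL. The 22 neuronal markers summed to 11734 to 15348 CPM on coats and 11383 to 14511 CPM on PDL, which fits the label of spinal cord cells rich in neurons. The 11 endothelial and mural markers that could be tested summed to 9.92 to 20.5 CPM on coats and 11.0 to 19.0 CPM on PDL. Of the defining endothelial genes, Cldn5, Cdh5, Tie1 and Emcn fell under the filter on low counts.

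The libraries from coated wells held fewer reads outside annotated genes. These reads made up 8.46%, 13.2% and 13.7% of all reads on Laminin, 10.8%, 10.8% and 12.4% on Myelin, 11.0%, 11.9% and 11.7% on Laminin + Myelin, and 17.4%, 19.4% and 17.5% on PDL. All 9 coated libraries lay below all 3 PDL libraries, and Laminin replicate 1 was the lowest. The means were 11.8% ± 2.89 on Laminin, 11.3% ± 0.927 on Myelin and 11.5% ± 0.468 on Laminin + Myelin, against 18.1% ± 1.13 on PDL (SD, n = 3 each). The coated mean was lower by 6.55 percentage points (exact permutation test of the PDL label within replicate number, two-sided, p = 0.0156, the smallest that 64 assignments allow). Permuted freely, the p was 0.00455 over 220 assignments, also the smallest possible. By replicate number the differences were -7.34, -7.44 and -4.89 points. Reads aligned to several places did not differ beyond their spread (mean 12.9% on coats and 12.3% on PDL, exact permutation p = 0.156).

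**Figure D1:**
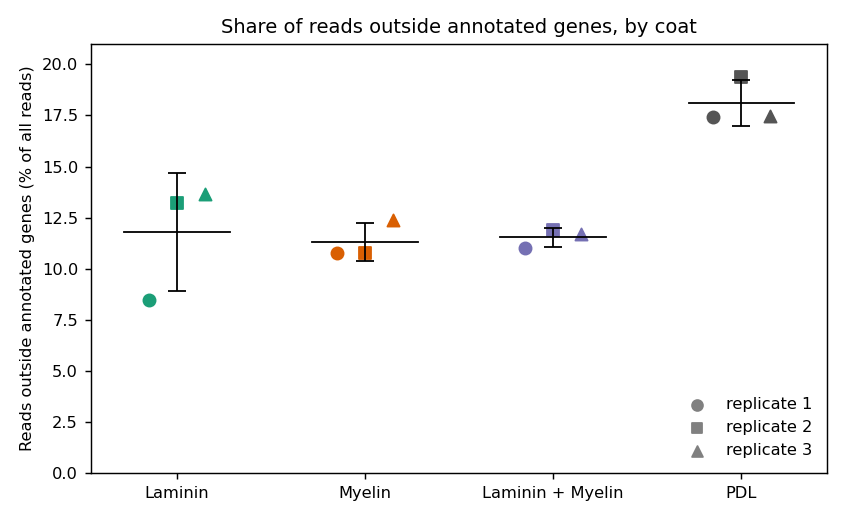
Share of all reads that matched no annotated gene (vertical axis, percent) in each of the 12 libraries, by coat, with the mean and SD of 3 libraries in black and symbols for the replicate number. The coated libraries lie between 8.46% and 13.7%, all below the PDL libraries at 17.4% to 19.4%.

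Many genes differed between coated and PDL wells, mostly by small amounts. Of 15737 genes tested, 3900 passed an adjusted p of 0.05 (24.8%), with 1567 higher on coats (9.96%) and 2333 lower (14.8%) by edgeR's quasi-likelihood test with Benjamini-Hochberg adjustment. The 3 coat estimates shared a sign in 3882 of them, 1551 higher (9.86%) and 2331 lower (14.8%), and 18 did not. Because the 3 coats were set against the same PDL libraries, this count is a description and its size is not evidence of agreement between coats. Taken alone against PDL, Laminin gave 1282 genes (8.15%), Myelin 2268 (14.4%) and Laminin + Myelin 2133 (13.6%). Passing in each of the 3 coats separately were 819 genes, 114 higher (0.724%) and 705 lower (4.48%). The genes that were lower moved further, with a median log2 change of -0.49, against 0.25 for those that were higher. Over 2-fold differences were found in 65 higher and 393 lower genes.

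The libraries themselves were often fully apart. All 9 coated libraries lay above all 3 PDL libraries in 841 of all genes tested (5.34%), of which 553 were called higher. They lay below in 1295 genes (8.23%), of which 1215 were called lower. In 3362 of the genes called with a shared sign, each of the 9 coated libraries differed from the PDL library of its own number in the called direction. These genes were called from the same libraries with the number as block, so this count is a description and adds no evidence.

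The count rested on the replicate block, on the PDL libraries and on the scale. Without the block 997 genes passed, 88 higher and 909 lower, all with a shared sign. Leaving out PDL replicate 1 left 983 genes, PDL replicate 2 left 778 and Myelin replicate 2 left 2475. Leaving out the 4 libraries of number 1, 2 or 3 left 2445, 111 and 1777 genes. With all reads of a library as its size, in place of reads in genes with TMM factors, 6209 genes passed. The higher share of called genes was then 70.7%, against 40.2%, and the median log2 change of all genes shifted by 0.0856. Of the lists described here, the cell cycle, histone and endothelial lists had medians of opposite sign on the 2 scales, and no gene that passed and is given with a log2 change reversed. The labels call the libraries biological replicates without naming litters or culture days, so the tests measure the spread among these libraries, which may be technical.

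Of the higher genes with the largest change in the least affected coat, 9 are reported here, and most encode secreted, matrix or contractile proteins. Igfbp7, a secreted binding protein for insulin-like growth factors, lies at chr5:77349240-77408041 (GRCm38, GENCODE M21). Its level was 2.09, 3.01 and 5.33 CPM (lowest, median and highest) in the 9 coated libraries, against 1.33, 1.24 and 1.02 CPM on PDL. Every coated library lay above every PDL library, and the log2 change was 1.48 ± 0.23 (SE, adjusted p = 0.00183, edgeR).

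Acta2, whose promoter is printed above, encodes an actin of smooth muscle and of contractile fibroblasts (gene at chr19:34241090-34255590). It measured 53.6, 42.3 and 37.8 CPM on Laminin, 40.5, 49.8 and 25.1 CPM on Myelin, and 28.8, 51.5 and 36.0 CPM on Laminin + Myelin, against 24.6, 17.4 and 12.7 CPM on PDL. The groups did not overlap, although Myelin replicate 3 and PDL replicate 1 lay next to each other. The log2 change was 1.16 ± 0.19 (adjusted p = 0.00229, edgeR), with 1.31 on Laminin, 1.06 on Myelin and 1.11 on Laminin + Myelin. Actg2, the second smooth muscle actin among these genes, rose by 1.33 ± 0.23 (adjusted p = 0.00303, edgeR), with overlapping groups.

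Bgn (chrX:73483602-73495933) encodes biglycan, a small proteoglycan that binds collagen. It ranged from 6.02 to 12.5 CPM on coats around a median of 6.31 CPM, against 4.09, 3.60 and 2.49 CPM on PDL. The groups lay apart, with a log2 change of 1.15 ± 0.17 (adjusted p = 0.00148, edgeR). Col8a1, a short-chain collagen of vessel walls, rose by 1.03 ± 0.17 (adjusted p = 0.00259). Lgals1, a secreted galactose-binding lectin, rose by 1.04 ± 0.17 (adjusted p = 0.00226). The remaining members of the 9 were Slc13a3, a dicarboxylate transporter (1.19 ± 0.20), and the macrophage genes Ms4a7 (1.39 ± 0.24) and Gpnmb (2.48 ± 0.47). For Gpnmb the log2 change was 3.23 on Myelin and 3.14 on Laminin + Myelin, against 1.06 on Laminin, a difference among coats that did not pass (adjusted p = 0.264, edgeR F test).

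**Figure D2:**
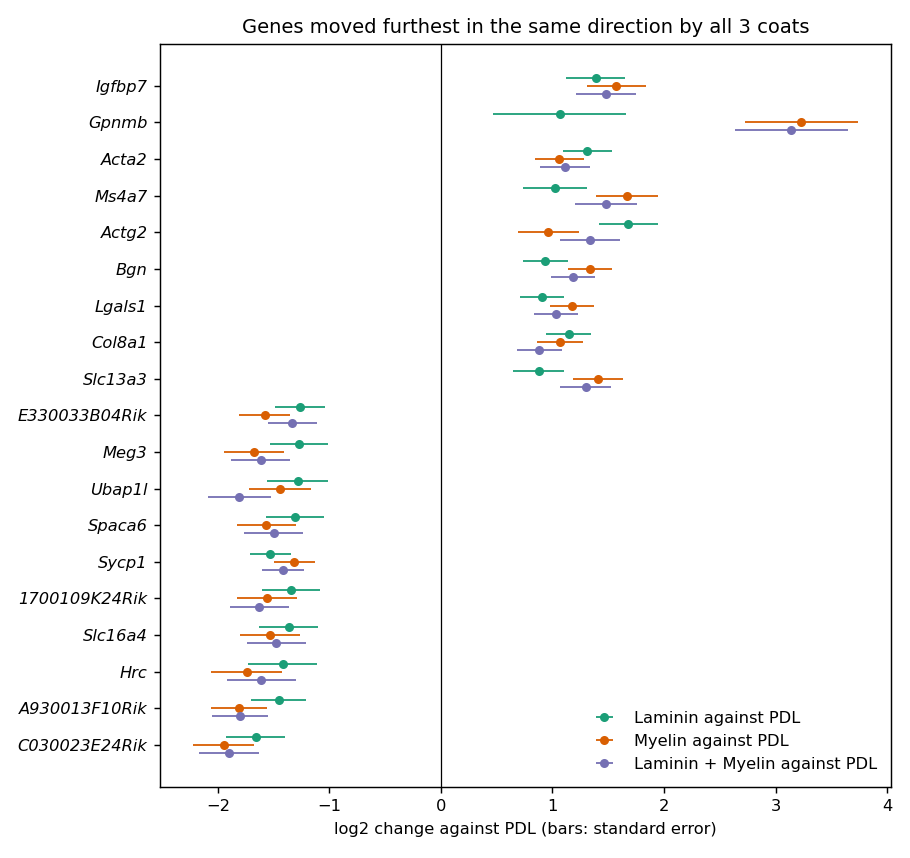
Log2 change against PDL (horizontal axis, bars are standard errors) on each coat for the 9 higher and 10 lower genes reported here among those with the largest change in their least affected coat. Every estimate lies on the side of its gene's pooled change, and the 3 estimates of a gene share the same PDL libraries.

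Some other matrix genes moved in the same way. Of 39 collagens, laminins, matrix-binding and crosslinking genes tested, 13 were higher (33.3%, against 9.96% of all genes). Lower were 2, Lama5 and Timp1 (5.13%, against 14.8%), and the median log2 change was 0.30, against 0.02 for all genes. Their summed level ranged from 457 to 858 CPM on coats and from 499 to 622 CPM on PDL. The sums thus overlapped, and the lowest was in a Laminin library. Col4a1 (chr8:11198423-11312826), a chain of basement membrane collagen, ranged from 37.1 to 69.6 CPM on coats around a median of 57.5 CPM, against 29.5, 27.5 and 33.2 CPM on PDL. All 9 coated libraries lay above PDL, and the log2 change was 0.85 ± 0.13 (adjusted p = 0.00195, edgeR). Among 14 contractile genes of smooth muscle, 6 were higher (42.9%) and 0 lower by edgeR, with a median of 0.49. At an unadjusted p under 0.05 edgeR had 1 of them lower (Mylk), limma-voom called 1 lower after adjustment and DESeq2 called 0. Tagln, an actin-binding protein of smooth muscle, ranged from 13.7 to 28.9 CPM on coats, against 14.7, 12.4 and 9.69 CPM on PDL, and rose by 0.72 ± 0.18 (adjusted p = 0.0153) with overlapping groups.

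The targets of YAP and SRF that are not specific to muscle gave calls in both directions. Of 28 tested, 5 were higher (17.9%, against 9.96% of all genes) and 4 lower (14.3%, against 14.8%), the latter a share near that of all genes. Ctgf, a matricellular protein and a standard YAP target, ranged from 12.4 to 26.6 CPM on coats around 16.7 CPM, against 10.2, 11.6 and 9.40 CPM on PDL, with a log2 change of 0.73 ± 0.14 (adjusted p = 0.00445, edgeR). Flna, which crosslinks actin filaments, went the other way. It ranged from 234 to 420 CPM on coats around 310 CPM, against 565, 579 and 471 CPM on PDL, and fell by 0.74 ± 0.13 on the log2 scale (adjusted p = 0.00348). Both genes had coated and PDL libraries fully apart. Of 23 integrins and other laminin receptors, Dag1 (dystroglycan) and Itgb1 were higher (8.70%, against 9.96% of all genes) and Itga8 and Itgb4 lower (8.70%, against 14.8%). Dag1 rose by 0.22 ± 0.05 (adjusted p = 0.0149) and Itga8 fell by 0.47 ± 0.13 (adjusted p = 0.0262). Of 26 focal adhesion genes 1 was higher (Cav1, 3.85%) and 2 lower (Pdlim7 and Trip6, 7.69%).

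Many markers of microglia moved with the coats. Of 20 tested, 11 were higher (55.0%, against 9.96% of all genes) and 0 lower by edgeR, with a median log2 change of 0.47. The list's median was 0.27 on Laminin, 0.74 on Myelin and 0.51 on Laminin + Myelin, and 3 of the 20 passed in each coat separately. None was lower at an unadjusted p under 0.05 or by DESeq2 or limma-voom. Their summed level ranged from 53.3 to 251 CPM on coats and from 53.8 to 147 CPM on PDL, so the sums overlapped. C1qa, a chain of the first complement component, measured 2.03, 3.59 and 5.73 CPM on Laminin, 3.04, 8.31 and 11.2 CPM on Myelin, and 2.44, 6.83 and 11.9 CPM on Laminin + Myelin, against 0.990, 2.15 and 3.36 CPM on PDL. Within each replicate number all coated libraries were above their PDL library, while the level differed between numbers. The log2 change was 1.42 ± 0.14 (adjusted p = 0.000401, edgeR), and without the block the adjusted p was 0.163. The defining markers Tmem119 (0.09 ± 0.36), Aif1 (0.33 ± 0.17) and Itgam (-0.15 ± 0.13) did not pass. In bulk RNA, more cells of a type and more RNA per cell cannot be told apart. The part of microglial RNA in the changes of Gpnmb, Ms4a7, Lgals1 and the matrix genes was not tested.

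Inflammatory genes were mixed. Of 16 tested, 3 were higher (18.8%, against 9.96% of all genes) and 2 lower (12.5%, against 14.8%). Ccl2, a chemokine that attracts monocytes, ranged from 0.399 to 1.06 CPM on coats, against 0.0521, 0.158 and 0.262 CPM on PDL, and rose by 2.01 ± 0.39 (adjusted p = 0.00464, edgeR) with groups apart. Immediate early genes, which neurons switch on with activity, gave 5 higher (25.0%, against 9.96% of all genes) and 1 lower (5.00%, against 14.8%) of 20. Of the 5 higher genes, 3 had the same sign on all 3 coats. The list's median was -0.006 on Laminin, 0.16 on Myelin and 0.24 on Laminin + Myelin. Fos ranged from 12.9 to 42.1 CPM on coats, against 11.8, 21.4 and 22.5 CPM on PDL, with a pooled change of 0.50 ± 0.11 (adjusted p = 0.00702). Its estimate was 0.82 on Myelin (adjusted p = 0.00402) and 0.56 on Laminin + Myelin (adjusted p = 0.0162), but 0.12 on Laminin (adjusted p = 0.524), and the difference among coats did not pass (adjusted p = 0.194). Npas4, which depends on calcium entry, ranged from 4.18 to 10.2 CPM on coats, against 12.4, 16.0 and 10.5 CPM on PDL. It fell by 0.79 ± 0.16 on the log2 scale (adjusted p = 0.00506), with groups apart.

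**Figure D3:**
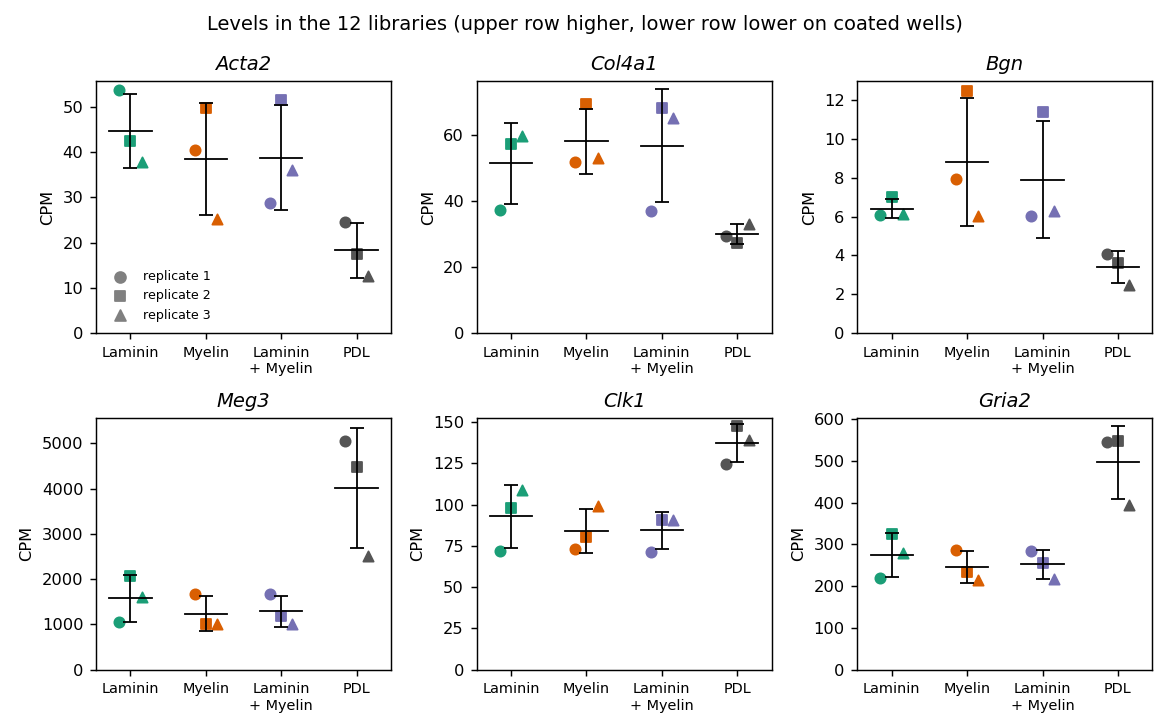
Level in CPM (vertical axes, from 0) of Acta2, Col4a1, Bgn, Meg3, Clk1 and Gria2 in the 12 libraries by coat, with the mean and SD of 3 libraries in black and symbols for the replicate number. The coated libraries lie above PDL in the upper row and below PDL in the lower row, without overlap in any of the 6 genes.

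Genes of protein synthesis and respiration had small estimates on the higher side, few of which passed. All 61 ribosomal protein genes had estimates above 0, from 0.14 to 0.35, with a median of 0.28, but only Rpl13 and Rpl30 passed. Rpl13 ranged from 181 to 268 CPM on coats, against 159, 187 and 211 CPM on PDL (log2 change 0.30 ± 0.10, adjusted p = 0.0444, edgeR). Rpl30 rose by 0.31 ± 0.10 (adjusted p = 0.0455). On the scale of all reads, 51 of the 61 passed. All 55 genes of oxidative phosphorylation also had estimates above 0, with a median of 0.25, and 8 passed (14.5%, against 9.96% of all genes higher). Atp5b, a subunit of the mitochondrial ATP synthase, ranged from 961 to 1192 CPM on coats, against 815, 860 and 914 CPM on PDL, with groups apart (0.25 ± 0.07, adjusted p = 0.0226). Genes of one pathway vary together between libraries, so these counts of signs are not independent observations.

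Cholesterol synthesis gave 11 higher (44.0%, against 9.96% of all genes) and 1 lower (4.00%, against 14.8%) of 25 genes, with a median of 0.19. Fdps, which makes farnesyl diphosphate, ranged from 164 to 209 CPM on coats, against 133, 165 and 149 CPM on PDL (0.34 ± 0.07, adjusted p = 0.00842, edgeR). Sqle, a rate-controlling enzyme of sterol synthesis, rose by 0.22 ± 0.05 (adjusted p = 0.0103). Of 27 genes of glycolysis and hypoxia, 10 were higher (37.0%) and 2 lower (7.41%). Vegfa and Pfkp were the lower pair. Vegfa, the endothelial growth factor, ranged from 28.2 to 39.4 CPM on coats, against 48.6, 57.6 and 47.6 CPM on PDL, and fell by 0.63 ± 0.08 (adjusted p = 0.000774). Pfkp, the platelet form of phosphofructokinase, ranged from 26.7 to 67.3 CPM on coats, against 94.0, 113 and 78.4 CPM on PDL, and fell by 1.10 ± 0.19 (adjusted p = 0.00303). Both were lower in all 9 coated libraries.

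Some neuronal growth genes were slightly higher on coats. Of 24 growth cone and axon growth genes, 9 were higher (37.5%, against 9.96% of all genes) and 1 lower (L1cam, 4.17%, against 14.8%). Their median was 0.16, and the largest change was that of Stat3 (0.74), which is among the 9. Stat3 had 1.10 on Myelin and 1.09 on Laminin + Myelin, but 0.02 on Laminin. Of 29 tubulins and kinesins 7 were higher (24.1%). Gap43, a growth cone protein (chr16:42248442-42340651), measured 644, 461 and 359 CPM on Laminin, 566, 535 and 412 CPM on Myelin, and 562, 539 and 395 CPM on Laminin + Myelin, against 430, 416 and 317 CPM on PDL. The groups overlapped because number 3 was low on every coat, and each coated library lay above the PDL library of its number. The log2 change was 0.35 ± 0.07 (adjusted p = 0.00625, edgeR). Tubb5 ranged from 2510 to 2853 CPM on coats, against 2326, 2301 and 2283 CPM on PDL, and rose by 0.21 ± 0.05 (adjusted p = 0.0165). Tubb3, the neuronal tubulin, rose by 0.20 ± 0.06 (adjusted p = 0.0386). Of 25 progenitor genes Id3, Sox1 and Sox2 were higher (12.0%, against 9.96% of all genes), a share near that of all genes. Sox2 rose by 0.24 ± 0.07 (adjusted p = 0.0359). Its estimate was 0.31 on Myelin and 0.35 on Laminin + Myelin, but 0.06 on Laminin (adjusted p = 0.665). Sox1 had 0.49 on Myelin and 0.43 on Laminin + Myelin, but 0.10 on Laminin (adjusted p = 0.576). Of 35 cell cycle genes 1 was higher (Rrm1, 2.86%) and 5 lower (14.3%, against 14.8% of all genes). Mki67, a marker of dividing cells, fell by 0.38 ± 0.10 (adjusted p = 0.0206), with 20.9 to 51.0 CPM on coats, against 36.6, 30.8 and 50.5 CPM on PDL. Its estimate was -0.64 on Laminin (adjusted p = 0.0225). It did not pass on Myelin (-0.28, adjusted p = 0.148) or Laminin + Myelin (-0.23, adjusted p = 0.231). For Sox2 and Mki67 the difference among coats did not pass (adjusted p = 0.766 and 0.794, edgeR F test). The median of the cell cycle list was -0.03, and 0.06 on the scale of all reads.

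The genes that fell most on all 3 coats were of another kind. Among the 10 with the largest change in the least affected coat, 4 were clone-named transcripts: C030023E24Rik (log2 change -1.84 ± 0.20), A930013F10Rik (-1.69 ± 0.19), 1700109K24Rik (-1.51 ± 0.20), which GENCODE lists as antisense, and E330033B04Rik (-1.39 ± 0.17). Others encode proteins known from other tissues: Hrc, a calcium-binding protein of heart and muscle (-1.59 ± 0.24), Sycp1 of the meiotic synaptonemal complex (-1.42 ± 0.14), and Spaca6 of sperm (-1.46 ± 0.20). Slc16a4, a carrier of the monocarboxylate family (-1.46 ± 0.20), Ubap1l (-1.51 ± 0.21) and Meg3 completed the 10. Their adjusted p-values ranged from 0.000401 to 0.00145 (edgeR), and in all 10 the coated libraries lay fully below PDL. C030023E24Rik, which led them, ranged from 1.20 to 2.05 CPM on coats around 1.45 CPM, against 3.62 to 7.64 CPM on PDL.

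Meg3, the second printed promoter (gene at chr12:109541001-109571726), was the most abundant of the 10 by count. It measured 1047, 2080 and 1599 CPM on Laminin, 1681, 1011 and 1017 CPM on Myelin, and 1674, 1179 and 1016 CPM on Laminin + Myelin, against 5042, 4482 and 2513 CPM on PDL. Each coated library was below each PDL library, and PDL replicate 3 was the lowest of the PDL libraries. The log2 change was -1.52 ± 0.20 (adjusted p = 0.000897, edgeR). Of 23 nuclear long noncoding RNAs tested, 11 were lower (47.8%, against 14.8% of all genes) and 1 was higher (Peg13), with a median of -0.29. Malat1 (chr19:5795690-5802672), an RNA of nuclear speckles, ranged from 866 to 1650 CPM on coats, against 1998, 2315 and 2197 CPM on PDL, and fell by 0.77 ± 0.15 (adjusted p = 0.00516). Neat1, the scaffold of paraspeckles, fell by 0.82 ± 0.14 (adjusted p = 0.00317), and Ftx, a regulator of X inactivation, by 0.71 ± 0.09 (adjusted p = 0.000774). Snhg11, a neuronal host gene of small nucleolar RNAs, fell by 1.26 ± 0.21 (adjusted p = 0.00229).

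Most splicing regulators, many of which keep an intron in a share of their own nuclear RNA, were lower. Of 40 listed genes 31 were lower (77.5%) and 0 higher by edgeR, with a median of -0.33. At an unadjusted p under 0.05, 1 was higher, and DESeq2 and limma-voom called 0 higher. With all reads as library size 28 were lower and 2 higher. In each of the 3 coats separately 20 were lower. Clk1 (chr1:58410189-58424066), a kinase of SR splicing factors, measured 71.8, 98.1 and 109 CPM on Laminin, 73.1, 80.4 and 99.0 CPM on Myelin, and 71.5, 90.9 and 90.8 CPM on Laminin + Myelin, against 125, 148 and 139 CPM on PDL. Coated and PDL libraries lay apart, and the log2 change was -0.67 ± 0.07 (adjusted p = 0.000401, edgeR). Its relative Clk4 fell by 0.59 ± 0.06 (adjusted p = 0.000401). The counts do not separate spliced from unspliced RNA.

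Many genes of ion channels and centrosomes were also lower. Of 27 sodium and calcium channel genes 12 were lower (44.4%, against 14.8% of all genes) and 2 higher, with a median of -0.17. Scn1a, a voltage-gated sodium channel, ranged from 21.1 to 34.4 CPM on coats, against 47.3, 44.3 and 45.3 CPM on PDL, and fell by 0.79 ± 0.09 (adjusted p = 0.000759, edgeR). Scn3a, its embryonic relative, fell by 0.56 ± 0.08 (adjusted p = 0.00103). Of 40 potassium channel genes 11 were lower (27.5%) and 3 higher. Kcnd1 fell by 1.21 ± 0.20 (adjusted p = 0.00229), with 1.42 to 3.29 CPM on coats, against 6.41, 6.25 and 3.88 CPM on PDL. Receptors for glutamate, GABA and glycine as a list were not lower more often than all genes, with 4 lower (10.8%, against 14.8%) and 1 higher (Gabrg1, 2.70% against 9.96%) of 37 and a median of 0.00. Gria2 (chr3:80681450-80802835), the AMPA receptor subunit that limits calcium entry and 1 of those 4, ranged from 214 to 325 CPM on coats around 254 CPM, against 546, 548 and 395 CPM on PDL, and fell by 0.94 ± 0.11 (adjusted p = 0.000697). Of 30 centrosome and cilium genes 14 were lower (46.7%). Cspp1, a spindle and cilium protein, ranged from 24.3 to 31.2 CPM on coats, against 52.1, 50.9 and 45.3 CPM on PDL, and fell by 0.86 ± 0.08 (adjusted p = 0.000401). Cep192, a centrosome scaffold, fell by 0.57 ± 0.07 (adjusted p = 0.000774). In all of these named genes coated and PDL libraries lay apart.

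Gene structure and class went with the direction of change. Of 75 microRNA genes tested, 37 were lower (49.3%) and 0 higher by edgeR, DESeq2 or limma-voom, with 2 higher at an unadjusted p under 0.05. Of 66 small nucleolar RNA genes 20 were lower (30.3%, against 14.8% of all genes). Of 217 antisense genes 72 were lower (33.2%) and 1 higher, and of 200 intergenic long noncoding genes 51 were lower and 3 higher. Of 14690 protein-coding genes 1551 were higher (10.6%) and 2035 lower (13.9%), while with all reads as library size 4315 were higher and 1535 lower. Within them the number of exon blocks graded the calls. From the quintile with 1 to 5 blocks to the quintile with 18 to 345 blocks, the share called higher was 15.3%, 14.4%, 11.9%, 7.83% and 3.34%. The share called lower was 6.26%, 9.05%, 11.8%, 16.7% and 25.5%. The median log2 change was 0.13 in the first quintile and -0.11 in the last. On the scale of all reads the last quintile still had a median of -0.02. Exonic length gave a similar contrast. In its shortest quintile 13.9% were called higher and 9.12% lower, and in its longest 4.80% and 22.6%. The number of blocks and exonic length were not separated. Small RNA genes lie within host genes, and without a stated strand setting, reads of antisense and overlapping genes cannot be told apart.

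**Figure D4:**
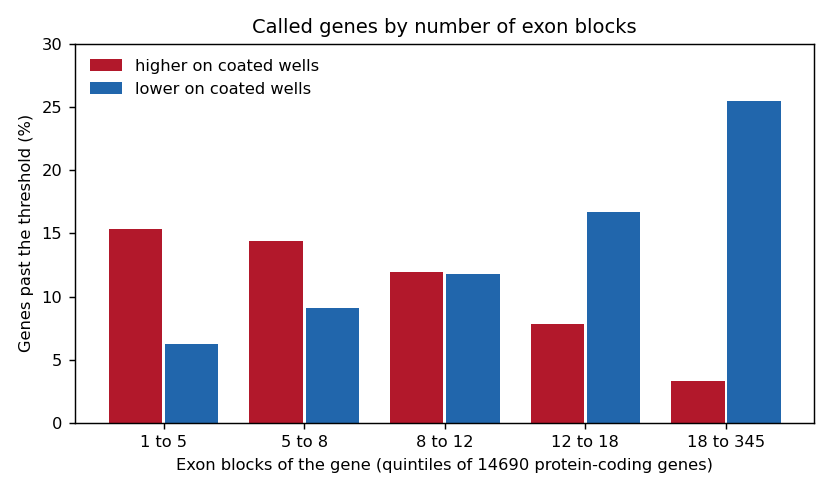
Percent of protein-coding genes past the threshold in the pooled comparison (vertical axis), higher or lower on coated wells, in quintiles of the number of exon blocks (horizontal axis). Along the quintiles the higher share declines to 3.34% and the lower share grows to 25.5%.

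The genes that separated coats from PDL also followed the share of reads outside genes among the coated libraries alone. A slope on that share was fitted in the 9 coated libraries, with coat and replicate number in the model and with no PDL library. The slope and the pooled change share these 9 libraries. It passed in 740 genes (4.70%), 271 positive and 469 negative (edgeR, adjusted). Of the 2333 genes lower on coats, 2112 had a positive slope (90.5%), with a median log2 slope of 0.08 per percentage point. Of the 1567 higher genes, 1441 had a negative slope (92.0%), with a median of -0.05. Among genes with no call 41.3% had a positive slope. Of the genes whose slope passed, 259 were lower on coats with a positive slope and 98 higher with a negative slope, and 0 had a slope of the opposite kind.

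This relation rested on few libraries, and on Laminin replicate 1 in particular, which had the lowest share. Without that library 1 gene passed, and the shares were 59.0% positive among lower and 55.0% negative among higher genes. The count also moved to 2 without Laminin replicate 2, 7 without Laminin replicate 3, 10 without Myelin replicate 1 and 31 without Laminin + Myelin replicate 1. It was 1412 without Myelin replicate 3, 2820 without Laminin + Myelin replicate 2 and 3374 without Laminin + Myelin replicate 3. Without the replicate block 0 genes passed by edgeR, with 4385 at an unadjusted p under 0.05.

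The slopes of named genes spanned both signs, and differences between the slopes of genes were not tested. Meg3 had a slope of 0.33 ± 0.03 per point (adjusted p = 0.0022, edgeR), Malat1 0.27 ± 0.03 (adjusted p = 0.00513) and Pfkp 0.32 ± 0.04 (adjusted p = 0.00748). Snhg11 (0.35 ± 0.03), Gria2 (0.17 ± 0.02) and Flna (0.17 ± 0.03) also had slopes that passed. Rpl13 had a slope of -0.14 ± 0.02 (adjusted p = 0.0137), and all 61 ribosomal protein genes had negative slopes. Of the 9 higher genes reported above, Slc13a3 had a slope that passed (-0.24 ± 0.05, adjusted p = 0.0192). The others did not pass, among them Ms4a7 (-0.28 ± 0.07, adjusted p = 0.0518), Lgals1 (-0.18 ± 0.05), Igfbp7 (-0.19 ± 0.08), Acta2 (-0.16 ± 0.06, adjusted p = 0.139), Bgn (-0.06 ± 0.06) and Actg2 (0.05 ± 0.10). Of the 10 lower genes, the slopes of Sycp1, C030023E24Rik, Slc16a4 and Hrc did not pass, at 0.17 to 0.32 per point, and the others passed. Col4a1 (0.01 ± 0.05), Ccl2 (0.01 ± 0.15), Ctgf (-0.06 ± 0.06) and Clk1 (0.06 ± 0.02) did not pass either.

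**Figure D5:**
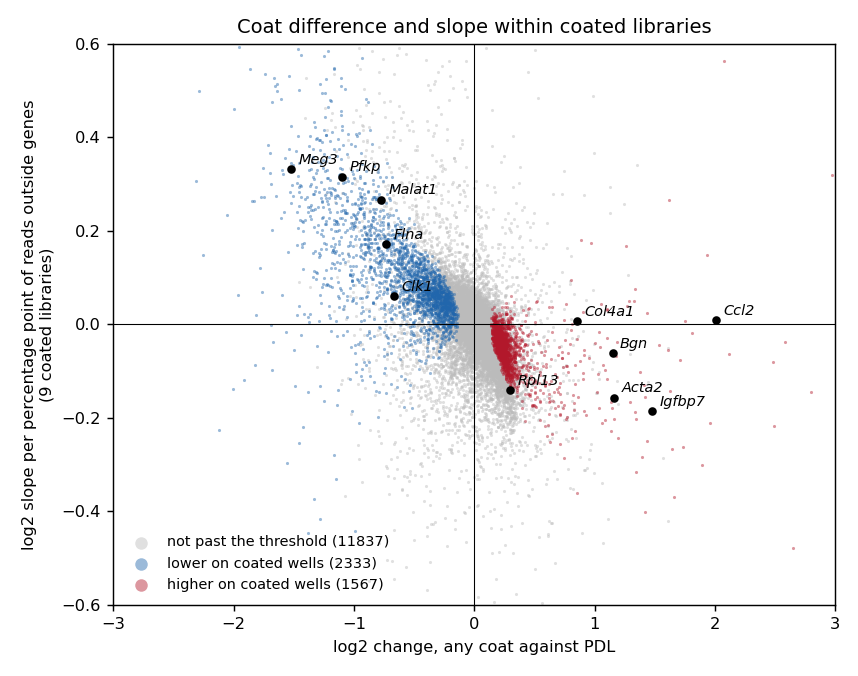
Log2 slope per percentage point of reads outside genes in the 9 coated libraries (vertical axis) against the log2 change of any coat over PDL (horizontal axis), 1 point per gene tested, with 74 genes outside the axes. Genes lower on coats lie mostly above 0 and genes higher on coats mostly below 0, while Col4a1 and Ccl2 lie close to a slope of 0.

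With the share as a covariate beside the replicate block, 0 genes passed by edgeR, with 1475 at an unadjusted p under 0.05, and only 1593 of the 3900 called genes kept their sign (40.8%). Coat and replicate number together gave the share with an R squared of 0.901, and the median SE of a gene was 0.222, against 0.0891 without the covariate. The share and the coat can therefore hardly be told apart in these 12 libraries. The estimate was then 0.53 ± 0.19 for Meg3, 0.57 ± 0.24 for Malat1 and -0.39 ± 0.19 for Rpl13 (SE), each with the opposite sign. Tagln (-0.01 ± 0.46) and Ms4a7 (-0.02 ± 0.46) were close to 0. Among higher genes the sign was kept by Col4a1 (0.86 ± 0.37), Bgn (0.93 ± 0.46), Ccl2 (1.75 ± 0.95), Ctgf (0.57 ± 0.38), Acta2 (0.54 ± 0.57) and Igfbp7 (0.54 ± 0.54). Among lower genes it was kept by Clk1 (-0.19 ± 0.14), Clk4 (-0.28 ± 0.15), Cspp1 (-0.23 ± 0.17), Sycp1 (-0.29 ± 0.37), Ftx (-0.20 ± 0.23) and Vegfa (-0.15 ± 0.20). None of these estimates passed after adjustment. The median of the matrix list was 0.48 with the covariate, against 0.30 without, and that of the ribosomal protein list was -0.59, against 0.28. Some lists of lower genes had medians close to 0 with the covariate, and others had medians of the opposite sign. The median was 0.02 for splicing regulators, against -0.33 without, and -0.01 for nuclear long noncoding RNAs, against -0.29. For centrosome and cilium genes it was -0.04, against -0.16. The sign reversed for sodium and calcium channel genes (0.23, against -0.17) and potassium channel genes (0.15, against -0.10). It also reversed for microRNA genes (0.55, against -0.89) and small nucleolar RNA genes (0.27, against -0.62). Among protein-coding genes the median reversed at both ends of the exon-block quintiles. It was -0.07, against 0.13, with 1 to 5 blocks and 0.12, against -0.11, with 18 to 345 blocks.

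Few genes differed among the 3 coats themselves. The F test of edgeR passed 14 genes (0.089%) and, without the replicate block, 3 genes. The count was 159 without Laminin replicate 1, 6 without Laminin replicate 3 and 23 without Laminin + Myelin replicate 1. Mbp, the myelin basic protein, averaged 35.8 ± 7.04 CPM on Laminin, 478 ± 259 CPM on Myelin and 331 ± 94.6 CPM on Laminin + Myelin, against 30.5 ± 4.69 CPM on PDL (SD, n = 3 each). Its pooled change of 2.49 ± 0.24 (adjusted p = 0.000401) was thus carried by the coats with myelin. The same held for Mobp (4.35 ± 0.42), Plekhb1 (3.56 ± 0.25), S100b (2.79 ± 0.28) and Prph (1.75 ± 0.15). Trem2 (pooled change 2.58 ± 0.25) changed more on the coats with myelin, by 3.33 on Myelin and 3.32 on Laminin + Myelin. On Laminin alone its estimate was 1.09 ± 0.33 (adjusted p = 0.0572, edgeR). Stat3, a transcription factor that cytokines activate, averaged 78.6 CPM on Laminin, 170 CPM on Myelin and 169 CPM on Laminin + Myelin, against 76.2 CPM on PDL, with a pooled change of 0.74 ± 0.11. The part of RNA brought in by the myelin coat was not tested, since the cell-free wells were not analysed here.

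The remaining lists are set beside the 9.96% higher and 14.8% lower of all genes tested. Of 32 genes that mark spinal neuron classes 3 were higher (9.38%) and 5 lower (15.6%). Of 30 axon guidance genes 2 were higher (6.67%) and 1 lower (3.33%), and of 30 synaptic vesicle genes 6 were higher (20.0%) and 3 lower (10.0%). Hox genes gave 1 higher (3.85%) and 3 lower (11.5%) of 26, and p53 and apoptosis genes 2 higher of 18. Integrated stress genes gave 2 higher (10.5%) and 1 lower (5.26%) of 19. Of 23 replication-dependent histone genes 0 passed by edgeR or limma-voom and 1 by DESeq2 (lower), with 2 at an unadjusted p under 0.05.

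In the authors' deposited table, which compares each coat with PDL, 1 gene was higher and 70 were lower in all 3 comparisons with an adjusted p under 0.05, and 482 passed in at least 1. Of the 3900 genes called here, 3884 had folds of the called sign in all 3 comparisons of that table. Both sets of folds come from the same libraries, so this match is not independent evidence.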

How the data were processed

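RNA from 12 wells was sequenced as paired-end TruSeq libraries, per the labels' protocols. The authors deposited whole-number counts per gene, not normalized, with log2 fold changes and adjusted p-values of their own comparisons; their 12 columns of normalized values were not used. Named in the submitters' processing notes are the builds mm10 and GRCm38, edgeR and CASAVA 1.8.2. The aligner, the counting program, its annotation and its strand setting: not given in the sources used here.

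Of 21033 entries, 3 named no gene and entered neither library sizes nor tests. Their reads were 8.46% to 19.4% (outside genes), 11.5% to 13.6% (several places) and 0.579% to 0.717% (several genes) of all reads. A spreadsheet had turned 27 symbols into dates, and 25 were restored. GENCODE M21 gave coordinates for 20732 of 21030 genes (98.6%) by symbol. Within a group, all pairs of replicates differed beyond counting noise (chi-square per degree of freedom 17.5 to 69.3).

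Low genes were removed with filterByExpr, given the 4 groups. R 4.3.3 with edgeR 4.0.16 fitted 1 quasi-likelihood model on 12 libraries (TMM factors, robust dispersions) with coat and replicate number, and the mean of the 3 coats minus PDL was tested two-sided, with Benjamini-Hochberg adjustment. An F test with 2 degrees of freedom compared the coats. DESeq2 1.42.0 and limma 3.58.1 (voom) were alternatives. The fit was tested on simulated counts. Python 3.11.15, pandas 2.3.3, scipy 1.17.1 and matplotlib 3.10.9 made tables, permutations and figures. Exon blocks are merged exons of a gene.

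The labels give each coat numbers 1 to 3. Deviations from group means correlated at 0.218 to 0.83 in all 18 pairs of libraries with the same number and at -0.77 to 0.243 in the 36 other pairs, so the numbers were taken to pair the libraries; this comes from the counts and not from the labels. Fold changes are log2 values with standard errors.

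Named genes were the 10 higher and 10 lower genes of at least 2 CPM with the largest change in their least affected coat, the 2 members of each list with the smallest p, a fixed set (Meg3, Malat1, Neat1, Acta2, Tagln, Gria2, Stat3, Gap43, Tubb3, Sox2, Mki67, Mobp, Mbp and Cspp1) and the 5 that differed most among coats. Of the 10 higher genes, 1 is not reported here. Members of small counts outside this rule were named after their values were seen. The comparison, its members and the gene lists were chosen with earlier results of these data known.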

Additional observations from a re-analysis of the deposited data

Results flagged for a closer look

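In 14 genes the effect of the 3 coats against PDL differed among the coats by edgeR's F test. In the following 10 the change was larger on the coats with myelin than on Laminin alone. The adjusted p was 4.12e-06 for Plekhb1, 4.12e-06 for Prph, 4.98e-06 for Mobp, 9.7e-05 for S100b, 0.000157 for Mbp, 0.00203 for Trem2, 0.00361 for Gfap, 0.00435 for Pdlim2, 0.00496 for Stat3 and 0.0133 for Apoe. The same held for Mal (0.0178), Nlrc5 (0.0274) and Corin (0.0311). Il1b (0.00634) went the other way, with a log2 change of -2.13 on Myelin and -1.95 on Laminin + Myelin, against 0.49 on Laminin.

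Reads that matched several genes at once, which the gene tests do not use, also separated the groups. They made up 0.68% of all reads on average in the 9 coated libraries and 0.599% in the PDL libraries. The coated libraries ranged from 0.645% to 0.717%, all above the PDL libraries at 0.579% to 0.632% (exact permutation within replicate number, two-sided, p = 0.0156, the smallest that 64 assignments allow).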

How the results depend on the processing

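Against 3900 genes called and 3882 with a shared sign, limma-voom, DESeq2, RLE factors, other filters and omitting the Laminin coat stayed within 1.5 times. Counts were 997 and 997 without the replicate block, 6209 and 6191 with all reads as library size, 0 and 0 when the share outside genes entered as a covariate, with the block or without it (1475 and 1469 genes at an unadjusted p under 0.05, edgeR), 1361 and 1358 without the Myelin coat, and 2089 and 2085 without the Laminin + Myelin coat. Passing in each coat separately were 819. Omitting single libraries or a whole number gave 111 to 5563 genes called, 109 to 5480 with a shared sign, and 1 to 3374 slopes on that share. Without the block 0 slopes passed by edgeR (4385 at an unadjusted p under 0.05), and 3 genes differed among coats. With the covariate and the block, the log2 change reversed to -0.023 for Ms4a7, -0.011 for Tagln, 0.46 for Npas4, -0.39 for Rpl13, -0.23 for Rpl30, -0.19 for Atp5b, -0.054 for Fdps, -0.093 for Gap43, -0.039 for Tubb3, -0.032 for Tubb5, 0.53 for Meg3, 0.57 for Malat1, 0.56 for Neat1, 0.92 for Snhg11, 0.088 for Gria2, 0.034 for Scn1a, 0.015 for Scn3a, 0.69 for Kcnd1, 0.49 for Flna, 0.81 for Pfkp, 0.20 for Itga8, 0.15 for C030023E24Rik, 0.26 for A930013F10Rik, 0.55 for Hrc, 0.13 for Slc16a4, 0.44 for 1700109K24Rik, 0.59 for Spaca6, 0.59 for Ubap1l and 0.089 for E330033B04Rik. With the covariate and no block it reversed to 1.23 for Il1b, 0.78 for Npas4, -0.039 for Rpl30, -0.020 for Atp5b, -0.46 for Gap43, -0.37 for Tubb3, 0.28 for Mki67, 0.23 for Malat1, 3.03 for Neat1, 0.12 for Clk1, 0.58 for Clk4, 0.26 for Flna, 0.28 for Pfkp, 0.038 for Vegfa, 0.22 for Itga8, 0.067 for Slc16a4 and 0.16 for Sycp1. The cause of the reversals was not tested. The share outside genes kept its direction in all alternatives run. At this depth a gene near the filter has few reads per library, so changes of low genes, Ccl2 among them, are the least precise.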
